A study of Mus musculus with 12 samples.

Results

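The 10 genes described here encode the transcription factor NRF2 and the proteins that pair with it, compete with it or mark it for degradation: Nfe2l2, Keap1, Nfe2l1, Bach1, Bach2, Mafg, Maff, Mafk, Cul3 and Btrc. They were chosen by name from the 20844 genes listed in both deposited gene tables. All 10 were in both tables, and all 10 passed the filter on low counts in every comparison. Their RNA was measured in mouse embryonic fibroblasts, connective-tissue cells grown from embryos at embryonic day 13.5 to 14.5, in 12 libraries that form 4 groups of 3. Cells with the LSL-Nrf2D29H allele on both chromosomes received either an empty adenovirus, which leaves them in the state that the labels call functionally Nrf2 knockout, or an adenovirus with Cre recombinase, which leads to expression of the missense form Nrf2 D29H. Cells with the CA-Keap1R554Q allele on both chromosomes received the empty virus, which leaves them in a state labelled as functionally wild type, or the Cre virus, which leads to expression of Keap1 R554Q. All 4 groups were infected at a multiplicity of 500, grown in DMEM without pyruvate but with serum, and collected 4 days after infection. No group of unmodified cells received the Cre virus, so within each allele the effects of Cre and of the mutant protein cannot be told apart. The labels do not say whether the replicates of a group came from separate embryos or cultures, and p-values measure the spread between these libraries, which may be technical.

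NRF2 binds antioxidant response elements only as a pair with a small Maf protein, MAFG, MAFF or MAFK, and switches on genes of glutathione and NADPH metabolism, detoxification and iron handling. Small Maf proteins have no activation domain of their own, and the repressors BACH1 and BACH2 pair with the same proteins and occupy overlapping sites until heme or other signals release them. In unstressed cells KEAP1 holds NRF2 and, as the adaptor of a CUL3 ubiquitin ligase, sends it to the proteasome, while the F-box protein β-TrCP, encoded by Btrc, offers a second route to degradation. Most of this control acts on protein, whereas the values below are of messenger RNA.

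Libraries held between 14963004 reads counted in genes, in replicate 3 of the group labelled knockout, and 23818477; the second shallowest held 19661193. Levels are given as CPM, counts scaled to a common total by library size and TMM factor over all 12 libraries, as mean ± SD over 3 libraries of a group. Differences are log2 fold changes from edgeR's quasi-likelihood test with their standard error (SE), and a gene was called at a Benjamini-Hochberg adjusted p under 0.05 over all genes tested. Summed CPM of 9 fibroblast markers ran from 14619 to 20754 over the libraries, while epithelial markers summed to at most 7.87, endothelial markers to at most 23.1, and erythroid and lymphocyte markers to at most 0.723 and 0.718; 5 of 6 lymphocyte markers were not in both tables. Macrophage markers, of which Adgre1 was not in both tables, summed to 135 to 179 CPM in the Nrf2-allele groups, 100.01 to 111 in the Keap1 wild-type group and 71.4 to 83.9 in the R554Q group. In bulk RNA, fewer cells of a type and less RNA per cell cannot be told apart. Leaving out D29H replicate 1 raised the number of genes called in the Nrf2 comparison from 682 to 2192, while it fell to 94 without D29H replicate 2, to 82 without D29H replicate 3 and to 301 without replicate 2 of the group labelled knockout. Leaving out R554Q replicate 3 raised it in the Keap1 comparison from 872 to 2872, and leaving out any other library lowered it to between 238 and 430. As a check of the labels, Nqo1, a classical NRF2 target, stood at 8.82 ± 1.73 CPM in the labelled-knockout group, 33.2 ± 0.246 in Keap1 wild type, 119 ± 13.1 in Nrf2 D29H and 351 ± 39.7 in Keap1 R554Q.

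Nfe2l2 itself, the gene of NRF2 (ENSMUSG00000015839, minus strand of chromosome 2 from 75675513 to 75704641, GRCm38), was counted in every library. Its CPM were 46.5, 40.2 and 41.2 in the libraries labelled knockout and 49.6, 57.1 and 52.5 after Cre. In the Keap1-allele cells they were 42.9, 44.2 and 41.7 in the wild-type group and 41.9, 34.0 and 46.4 in the R554Q group. The group labelled knockout was not separated from the wild-type group (a log2 difference of -0.01, SE 0.10, 95% interval -0.22 to 0.20, edgeR adjusted p = 0.965), and the 3 D29H libraries were above all the other 9. A count per gene does not separate transcripts of a silenced allele from those of an active one, so it does not check the knockout label. Within the Nrf2-allele cells the D29H level was 0.31 higher on the log2 scale (SE 0.10, 95% interval 0.10 to 0.52), with an edgeR adjusted p of 0.0713 that missed the threshold. Over the alternatives run for this comparison the adjusted p ran from 0.0281 to 0.293. It fell under the threshold when D29H replicate 1 was left out (0.36, adjusted p = 0.0281) and with GC and length offsets (0.39, adjusted p = 0.0337), which remove the trend of each library with the GC content and length of genes. The authors' deposited table gives a log2 fold change of 0.27 with an adjusted p of 0.0728.

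Between the Keap1 groups Nfe2l2 differed by -0.07 (SE 0.10, edgeR adjusted p = 0.718), and the wild-type values lay inside the range of the R554Q values. When both Cre groups were set side by side in the fit of all 12 libraries, D29H cells had more Nfe2l2 RNA than R554Q cells by 0.38 (SE 0.10, edgeR adjusted p = 0.00818), with no overlap. That call was lost without R554Q replicate 2, the library with the lowest Nfe2l2 value (0.26, adjusted p = 0.0595). D29H was also above the Keap1 wild-type group, its nearest neighbour in the order of levels, by 0.31 (SE 0.10, edgeR adjusted p = 0.0251), while no step among the other 3 groups was called. The direct test of whether the Cre effect differed between the alleles gave 0.39 (SE 0.14, 95% interval 0.09 to 0.69), with an edgeR adjusted p of 0.332.

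**Figure D1:**
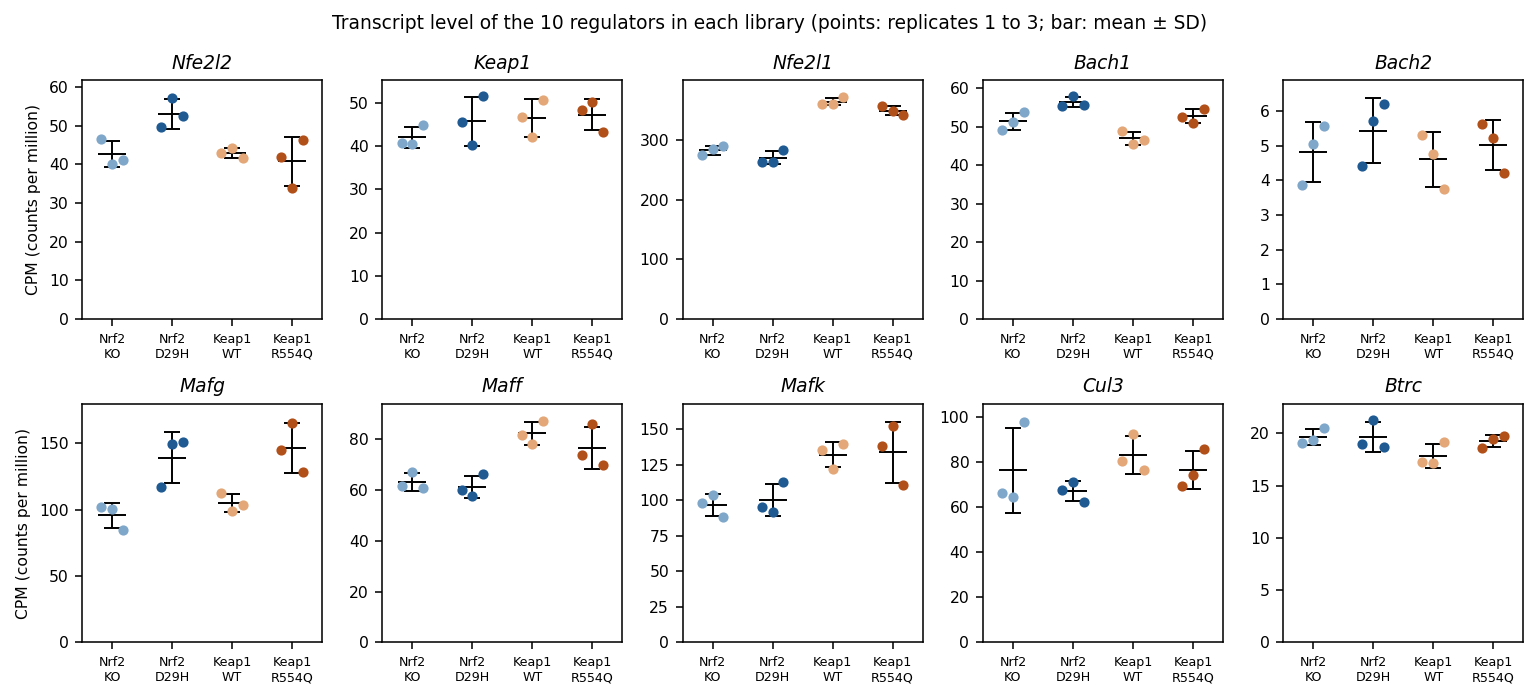
CPM of each of the 10 genes by group, with points for the 3 libraries and bars for the mean ± SD; each panel has its own linear axis starting at 0. Mafg stands higher in both Cre groups than in both empty-virus groups, Nfe2l2 is highest in D29H, and Nfe2l1, Maff and Mafk are higher in the Keap1-allele cells.

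Among the DNA-binding partners of NRF2, Mafg rose in both mutant states. Mafg (ENSMUSG00000051510, minus strand of chromosome 11 from 120625117 to 120633600) stood at 102, 100.4 and 84.6 CPM in the libraries labelled knockout and at 117, 149 and 151 in the D29H libraries. In the Keap1-allele cells it stood at 112, 99.1 and 103 CPM in the wild-type group and at 145, 165 and 128 in the R554Q group. In both pairs every Cre library was above every empty-virus library. The difference was 0.54 on the log2 scale for D29H (SE 0.11, 95% interval 0.30 to 0.77, edgeR adjusted p = 0.00892), a fold change of 1.45. For R554Q it was 0.49 (SE 0.09, 95% interval 0.29 to 0.68, edgeR adjusted p = 0.00478), a fold change of 1.40. The authors' deposited table lists 0.46 with an adjusted p of 0.0013057 and 0.43 with an adjusted p of 9.6886e-05 for the same comparisons. The deposited fold changes of Nqo1 were likewise below the edgeR values, at 3.15 and 3.06 against 3.74 and 3.41. How the authors estimated them is not given in the sources used here. Mafg was the 1 member of 10 called in the Nrf2 comparison, where 4.75% of 14370 genes were called, 3.47% were called higher and 1.28% lower. It was likewise the 1 member of 10 called in the Keap1 comparison, where 6.17% of 14128 genes were called, 3.77% were called higher and 2.4% lower. Of the 13860 genes tested in both comparisons, 145 (1.05%) were called higher in each.

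The Nrf2 call on Mafg was lost in the fits without D29H replicate 2 or 3, in which calls over all genes also fell from 682 to 94 and 82. Without replicate 2 the difference was 0.49 with an edgeR adjusted p of 0.0786, and without replicate 3 it was 0.48 with an adjusted p of 0.113. Without replicate 1, the D29H library with the lowest Mafg value, it was 0.64 with an adjusted p of 0.00135. In the Keap1 comparison Mafg stayed called in every alternative run, at 0.39 to 0.58 with 1 library left out, but GC and length offsets lowered it to 0.29 (adjusted p = 0.0304). The D29H and R554Q effects on Mafg differed by 0.06 (SE 0.15, 95% interval -0.26 to 0.38, edgeR adjusted p = 0.914). In the order of levels, R554Q and D29H were not separated (0.07, adjusted p = 0.654), nor were Keap1 wild type and labelled knockout (0.13, adjusted p = 0.448), whereas D29H lay above Keap1 wild type by 0.41 (SE 0.11, adjusted p = 0.00707), all in the edgeR fit of 12 libraries. Exons of Mafg share 124 bases on the same strand with Sirt7, a neighbouring gene whose reads numbered 45.8% of those of Mafg. Sirt7 differed by 0.17 (SE 0.10, edgeR adjusted p = 0.314) in the Nrf2 comparison and by 0.26 (SE 0.09, edgeR adjusted p = 0.0895) in the Keap1 comparison. In the latter its R554Q libraries were all above the wild-type libraries, as for 13.3% of genes. D29H cells had more Sirt7 RNA than Keap1 wild-type cells by 0.33 (SE 0.09, edgeR adjusted p = 0.00921), where 33.0% of all genes were called. R554Q cells differed from cells labelled knockout by 0.09 (SE 0.09, edgeR adjusted p = 0.541). How the authors' counting treated reads in the shared stretch is not given in the sources used here, and their part in the Mafg values was not tested.

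The other two small Maf genes did not follow Mafg. Maff (ENSMUSG00000042622, chromosome 15 from 79347541 to 79359072) stood at 61.5, 67.0 and 60.6 CPM in the group labelled knockout and 59.9, 57.7 and 66.1 in D29H, and at 81.4, 77.9 and 87.0 in Keap1 wild type and 73.9, 85.8 and 69.8 in R554Q. Its groups overlapped within each allele, with a D29H difference of -0.05 (SE 0.10, edgeR adjusted p = 0.818) and an R554Q difference of -0.10 (SE 0.09, edgeR adjusted p = 0.538). Mafk (ENSMUSG00000018143, chromosome 5 from 139791513 to 139802653) stood at 97.8, 103 and 88.1 CPM in the group labelled knockout and 95.1, 91.7 and 113 in D29H, and at 135, 122 and 139 in Keap1 wild type and 138, 152 and 110.3 in R554Q. Mafk differed by 0.05 (SE 0.11, edgeR adjusted p = 0.829) with D29H and by 0.02 (SE 0.10, edgeR adjusted p = 0.921) with R554Q, again with overlap within each allele. The 95% intervals for Maff and Mafk reached no higher than 0.26, below the lower end of the Mafg interval in either comparison. Whether these genes differed from Mafg in their change was not tested in a model of its own.

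**Figure D2:**
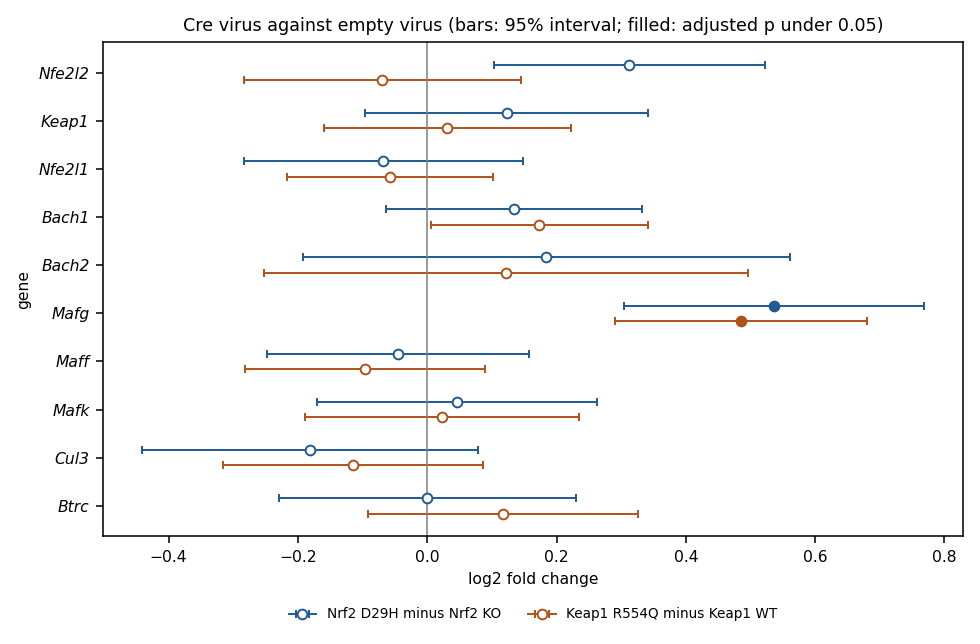
Log2 fold change of Cre virus against empty virus for each gene in the Nrf2-allele cells (blue) and the Keap1-allele cells (orange), with 95% intervals from edgeR; filled points have an adjusted p under 0.05. The 2 Mafg points, at 0.54 and 0.49, are the ones that are filled, and the intervals of both alleles overlap for every gene.

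Levels of different genes were compared per transcript length, as FPKM (fragments scaled by gene length and library total). Mafk (median 36.4 FPKM over the 12 libraries) and Maff (35.5) were both above Mafg (23.1), so by these medians the small Maf gene that rose was the least abundant of the 3, although in D29H replicate 2 it held the highest share, 33.8% against 33.2% for Maff and 33.0% for Mafk. Mafg made up 24.6%, 23.1% and 22.3% of the summed FPKM of the 3 small Maf genes in the libraries labelled knockout, and 27.8%, 33.8% and 30.3% with D29H. It made up 21.0%, 20.2% and 18.9% in Keap1 wild type and 26.2%, 26.4% and 26.6% with R554Q. The share was thus higher in every Cre library than in any empty-virus library of the same allele, and the group means differed by more than the spread between replicates: 30.6% ± 3.00 against 23.3% ± 1.16 and 26.4% ± 0.195 against 20.03% ± 1.04. The R554Q replicates ranged widely in summed small Maf FPKM, from 96.7 to 127, yet their Mafg shares lay within 0.389 percentage points of each other. The summed FPKM of the 3 genes was 84.1 ± 5.04 in the group labelled knockout and 95.3 ± 9.01 with D29H, and 102 ± 4.94 in Keap1 wild type and 112 ± 15.3 with R554Q, with overlap within each allele. The share itself was not put to a test.

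**Figure D3:**
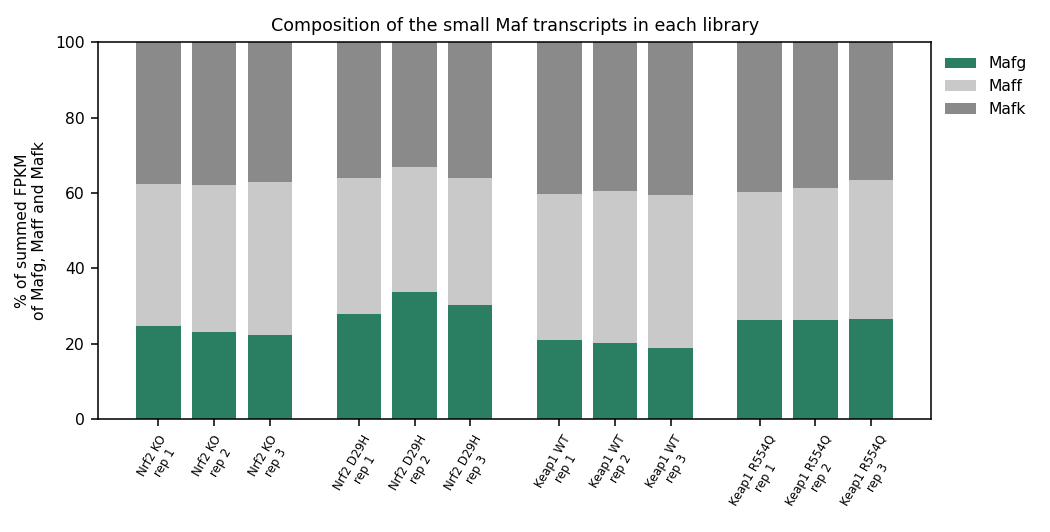
Share of Mafg, Maff and Mafk in their summed FPKM, in % (linear axis from 0 to 100), with 1 stacked bar for each of the 12 libraries. The Mafg portion, drawn from the axis upward, runs from 27.8% to 33.8% in D29H against 22.3% to 24.6% in the libraries labelled knockout, and from 26.2% to 26.6% in R554Q against 18.9% to 21.0% in Keap1 wild type.

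Promoter sequence was read for the members because Mafg and Nfe2l2 have been described as targets of NRF2 through antioxidant response elements. RefSeq windows of GRCm38.p6, from 250 bases before to 50 after a transcription start, were held for 9 of the 10 genes, 15 windows in all. They were searched on both strands for TGACNNNGC, the core letters of the antioxidant response element, and for TGAGTCA, the AP-1 site, with the longer half-site of the Maf recognition element that contains it. The core was found in 4 of the 15 windows, in 4 genes, and in 12.4% of all 32851 windows of that length. TGAGTCA was in 0 of the 15 windows and in 5.20% of all windows, and the longer Maf form in 0 of 15 and in 0.155% of all. The 4 matches are shown with their surroundings because they include the member that rose in both comparisons and the 2 small Maf genes that did not. Each run is read 5′ to 3′ on the strand of its gene, and capitals mark the match, which lies on the opposite strand in Mafg and Mafk.
Mafg, first base of the match at -222 from the start, chr11:120633731-120633797, minus strand: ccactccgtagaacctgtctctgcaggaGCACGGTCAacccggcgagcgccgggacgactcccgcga
Nfe2l2, at -240, chr2:75704865-75704913, minus strand: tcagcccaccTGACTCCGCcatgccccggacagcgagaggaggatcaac
Mafk, at -13, chr5:139791493-139791561, plus strand: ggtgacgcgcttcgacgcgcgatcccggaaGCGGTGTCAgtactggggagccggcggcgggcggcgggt
Maff, at -112 in the most upstream of 3 windows, chr15:79346479-79346547, plus strand: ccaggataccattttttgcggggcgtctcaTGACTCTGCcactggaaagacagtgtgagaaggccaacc
A match of these letters was thus present both in the small Maf promoter whose gene was called and in those whose genes were not. A match is a description of letters and not a bound site, since no binding was measured.

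Of all 14794 genes in the 12-library fit, the 3 whose pattern over the libraries lay nearest to that of Mafg were Abcd4, Spred3 and A430105I19Rik, by the root mean square difference of log2 CPM after centring each gene on its mean. That difference was 0.0805 for Abcd4, 0.0868 for Spred3 and 0.0874 for A430105I19Rik, over 12 libraries. Since these genes were chosen for values near those of Mafg in the same libraries, their differences and what they depend on follow in large part from that choice and are given as a description. All of their D29H calls were lost without D29H replicate 2 or without D29H replicate 3, as was that on Mafg. Abcd4, an ATP-binding cassette transporter gene of cobalamin handling, rose by 0.46 (edgeR adjusted p = 0.022) with D29H and by 0.46 (adjusted p = 0.0133) with R554Q, a call that 3 of the 6 fits with 1 library left out did not make. Spred3, a gene of the Sprouty-related inhibitors of Ras signalling, rose with D29H (0.45, edgeR adjusted p = 0.0285) and differed by 0.30 with R554Q (adjusted p = 0.0745). A430105I19Rik rose with D29H (0.55, edgeR adjusted p = 0.00888) and differed by 0.27 with R554Q (adjusted p = 0.116).

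Nfe2l1 encodes NRF1, a relative of NRF2 that is anchored in the endoplasmic reticulum and drives proteasome genes when proteasome activity falls. It (ENSMUSG00000038615, minus strand of chromosome 11 from 96817414 to 96829968) was the most abundant member, at a median of 68.0 FPKM against 17.1 for Nfe2l2. Its CPM were 274, 284 and 289 in the libraries labelled knockout, 264, 263 and 282 with D29H, 361, 360.2 and 371 in Keap1 wild type and 356, 348 and 341 with R554Q. Within an allele the differences were -0.07 (SE 0.10, edgeR adjusted p = 0.733) for D29H and -0.06 (SE 0.08, edgeR adjusted p = 0.686) for R554Q. The R554Q libraries nevertheless all lay below the wild-type libraries, which was also the case for 14.2% of genes in that comparison. All 6 libraries of Nrf2-allele cells lay below all 6 of Keap1-allele cells, and the share of genes with this pattern is not given here. The group labelled knockout was below Keap1 wild type by a log2 difference of -0.37 (SE 0.08, edgeR adjusted p = 0.00216), and D29H was below R554Q by the same -0.37 (SE 0.08, edgeR adjusted p = 0.00175).

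Maff and Mafk showed the same split between the cultures. With the empty virus, cells of the Nrf2 allele were below cells of the Keap1 allele by -0.38 (SE 0.09, edgeR adjusted p = 0.00447) for Maff and -0.45 (SE 0.11, edgeR adjusted p = 0.00477) for Mafk, without overlap in either gene. With the Cre virus the differences were -0.32 (SE 0.09, edgeR adjusted p = 0.0118) for Maff, without overlap, and -0.42 (SE 0.11, edgeR adjusted p = 0.00661) for Mafk, where D29H replicate 3 reached above R554Q replicate 3. The Cre-virus call on Maff was lost without D29H replicate 2 (-0.28, adjusted p = 0.0589) or R554Q replicate 2 (-0.23, adjusted p = 0.0794). The calls on Nfe2l1 and Mafk in both states, and on Maff with the empty virus, held at 0.05 in every alternative run. These 3 of 10 members called lower with the empty virus compare with 10.1% of 14794 genes called lower, 9.58% called higher and 19.7% called in either direction, and with 19.1% whose groups do not overlap in that direction. With the Cre virus, 3 members were called lower and Nfe2l2 was called higher, against 13.4% of genes called lower, 13.1% called higher and 26.5% called in all. In that state 18.3% of genes had D29H libraries all above the R554Q libraries, as Nfe2l2 and Bach1 had. The share of genes with D29H libraries all below the R554Q libraries, as Nfe2l1 and Maff had, is not given here. Of all genes 6.63% were called lower in both states. Allele, culture and deposited table coincide in these contrasts and cannot be told apart. Summed levels of macrophage and epithelial markers moved with this split as well. Macrophage markers were at 135 to 179 CPM in the Nrf2-allele cells and 71.4 to 111 in the Keap1-allele cells, and epithelial markers at 2.07 to 4.32 and 5.35 to 7.87 CPM. Fibroblast markers were at 19183 to 20754 CPM in the group labelled knockout against 14794 to 17121 in Keap1 wild type, and at 16902 to 17641 with D29H against 14619 to 15898 with R554Q. Fibroblast sums thus overlapped between D29H and Keap1 wild type. Endothelial, erythroid and lymphocyte sums overlapped between the cultures, endothelial markers at 15.8 to 23.1 CPM in Nrf2-allele and 14.9 to 18.9 in Keap1-allele cells. The part of these marker levels in the split was not tested.

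**Figure D4:**
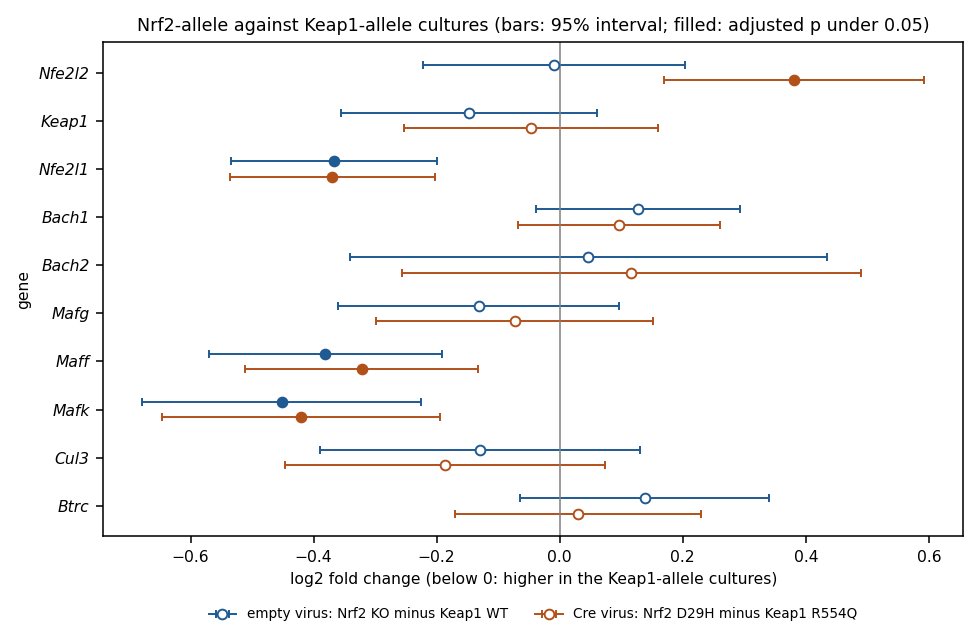
Log2 fold change of Nrf2-allele against Keap1-allele cells for each gene, with the empty virus (blue) and with the Cre virus (orange) and 95% intervals from the edgeR fit of all 12 libraries; filled points have an adjusted p under 0.05. Nfe2l1, Maff and Mafk lie left of 0 in both states, at -0.32 to -0.45, and Nfe2l2 lies right of 0 with the Cre virus at 0.38.

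Of the repressors that share the small Maf partners, Bach1 (ENSMUSG00000025612, chromosome 16 from 87698945 to 87733346) stood at 49.2, 51.2 and 53.8 CPM in the libraries labelled knockout and 55.5, 58.0 and 55.8 with D29H. It stood at 48.9, 45.5 and 46.6 CPM in Keap1 wild type and 52.6, 51.0 and 54.7 with R554Q. Cre libraries were above empty-virus libraries without overlap for both alleles, but the differences were small: 0.13 (SE 0.10, edgeR adjusted p = 0.415) for D29H and 0.17 (SE 0.08, 95% interval 0.01 to 0.34, edgeR adjusted p = 0.192) for R554Q. Groups that do not overlap in that direction were common, at 12.7% of genes in the Nrf2 comparison, where 3 of 10 members had them (Nfe2l2, Mafg and Bach1), and at 13.3% in the Keap1 comparison, where 2 had them (Mafg and Bach1). From D29H, the highest group, to Keap1 wild type, the lowest, Bach1 differed by 0.26 (SE 0.08, edgeR adjusted p = 0.0143), while no step between neighbouring groups was called. Per length, the ratio of Bach1 to Nfe2l2 was 0.512 ± 0.0572 in the group labelled knockout, 0.450 ± 0.0222 with D29H, 0.462 ± 0.0247 in Keap1 wild type and 0.553 ± 0.0706 with R554Q. The R554Q ratios, from 0.498 to 0.633, lay above the wild-type ratios, from 0.434 to 0.482, and those of the Nrf2-allele groups overlapped. The highest R554Q ratio was that of replicate 2, the library with the lowest Nfe2l2 value, and the ratios were not put to a test.

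Bach2 (ENSMUSG00000040270, chromosome 4 from 32238804 to 32586108), a repressor best known from lymphocytes, was the least abundant member at a median of 0.572 FPKM. It had between 70 and 137 counts in a library, the fewest of the 10 genes, and its intervals were the widest. Its CPM ran from 3.86 to 5.56 in the group labelled knockout and 4.40 to 6.19 with D29H, and from 3.75 to 5.31 in Keap1 wild type and 4.20 to 5.61 with R554Q. The differences of 0.18 (SE 0.18, 95% interval -0.19 to 0.56, edgeR adjusted p = 0.574) and 0.12 (SE 0.18, 95% interval -0.25 to 0.50, edgeR adjusted p = 0.716) were within the spread between replicates. A change of the size seen for Mafg in the R554Q cells lies inside both intervals.

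Genes of heme and iron handling that carry Maf recognition elements and are textbook targets of BACH1 and NRF2 rose while Bach1 RNA was not called: 6 of 7 were called higher and 0 lower in each comparison, by edgeR, DESeq2 and limma alike and with none at an unadjusted p under 0.05 downward, with medians of 1.04 and 1.05 against a median of 0.00 over all genes. Hmox1, heme oxygenase, rose by 1.39 with D29H and 1.10 with R554Q. Slc40a1, the iron exporter ferroportin, rose by 2.99 and 2.69, and Slc48a1, a heme transporter, by 1.04 and 1.05. Blvrb, a biliverdin reductase gene, rose by 1.64 and 2.12, and the ferritin genes Fth1 and Ftl1 rose by 1.00 and 0.72 with D29H and by 0.88 and 0.67 with R554Q. These calls were made in all 16 settings run, apart from that on Ftl1 with D29H, which was lost without D29H replicate 3 (0.68, edgeR adjusted p = 0.0713). In a wider list of NRF2 targets, 19 of 25 genes were called higher with D29H and 21 of 25 with R554Q, beside 3.47% and 3.77% of all genes, and none was called lower or had an unadjusted p under 0.05 downward, by edgeR, nor was any called lower by DESeq2 or limma. Hmox1, Ftl1 and Fth1 are in both lists, which were chosen with earlier results of these data known. In the difference between alleles edgeR called 1 of 25 higher and 3 lower, DESeq2 0 and 4, and limma 0 and 1. Between the cultures edgeR called 18 of 25 lower in Nrf2-allele cells with the empty virus and 22 with the Cre virus (10.1% and 13.4% of all genes). It called 1 and 0 higher there, and 6 and 7 of the 7 heme and iron genes lower.

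The genes of the degradation route did not pass the test in either comparison. Keap1 (ENSMUSG00000003308, minus strand of chromosome 9 from 21229730 to 21239332) stood at 40.8, 40.4 and 44.9 CPM in the libraries labelled knockout, 45.6, 40.2 and 51.5 with D29H, 46.8, 42.0 and 50.6 in Keap1 wild type and 48.3, 50.3 and 43.2 with R554Q. All 3 R554Q values were inside the wild-type range, with a difference of 0.03 (SE 0.09, 95% interval -0.16 to 0.22, edgeR adjusted p = 0.871). The GC and length offsets turned this difference to -0.20 (adjusted p = 0.101), outside that interval. For D29H the difference was 0.12 (SE 0.11, 95% interval -0.10 to 0.34, edgeR adjusted p = 0.51). The highest and lowest groups, R554Q and labelled knockout, were not separated either (0.17, edgeR adjusted p = 0.228).

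Cul3 (ENSMUSG00000004364, minus strand of chromosome 1 from 80264923 to 80340480), the scaffold of the ligase, stood at 66.5, 64.6 and 97.9 CPM in the libraries labelled knockout and 67.8, 71.4 and 62.5 with D29H. It stood at 80.6, 92.5 and 76.4 CPM in Keap1 wild type and 69.3, 74.5 and 85.8 with R554Q. Replicate 3 of the group labelled knockout, the shallowest library, held the highest Cul3 value of all 12. The differences were -0.18 (SE 0.13, edgeR adjusted p = 0.396) with D29H and -0.11 (SE 0.10, edgeR adjusted p = 0.492) with R554Q. Without that replicate the D29H difference turned to 0.041. With the empty virus the culture difference was -0.13 (edgeR adjusted p = 0.523), and without that replicate it was -0.34 (adjusted p = 0.0219), with the group labelled knockout lower. Btrc (ENSMUSG00000025217, chromosome 19 from 45363734 to 45533341) ranged from 17.1 to 21.3 CPM over all libraries, with differences of 0.00 (SE 0.11, edgeR adjusted p = 0.999) for D29H and 0.12 (SE 0.10, edgeR adjusted p = 0.5) for R554Q. For Keap1, Cul3, Btrc and Bach2 no pair of neighbours in the order of the 4 group levels was called, nor was the highest against the lowest.

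Contrasts of the groups that share neither allele nor virus gave further values. D29H cells had more Nfe2l2, Mafg and Bach1 RNA than Keap1 wild-type cells, by 0.31, 0.41 and 0.26, and less Nfe2l1, Maff and Mafk RNA, by -0.43, -0.42 and -0.40 (edgeR adjusted p from 0.000356 to 0.0251). These 6 of 10 members called stand beside 33.0% of all genes called in either direction. R554Q cells had more Mafg, Mafk, Nfe2l1 and Maff RNA than cells labelled knockout, by 0.61, 0.47, 0.30 and 0.28 (edgeR adjusted p from 0.000221 to 0.0282), where 13.1% of all genes were called higher. Genotype, virus and culture cannot be told apart in either contrast.

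Across all 10 members the Nrf2 comparison called 1 higher and 0 lower, with a median log2 fold change of 0.08, and the Keap1 comparison called 1 higher and 0 lower, with a median of 0.03, each beside a median of 0.00 over all genes. In the test of whether the alleles differed in their Cre effect, edgeR called 0 of 10 members, with adjusted p from 0.332 to 0.996. In that test 1 member, Nfe2l2, had an unadjusted p under 0.05, DESeq2 and limma also called 0, and edgeR called 0.027% of all genes.

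The members were set beside 31 other genes that act on NRF2, its relatives or its partners: acetyltransferases, ligase subunits, kinases, KEAP1-binding proteins and the processing route of NRF1. Of 29 tested in the Nrf2 comparison edgeR called 2 higher and 0 lower, with a median of -0.02. Of 28 tested in the Keap1 comparison it called 2 higher and 0 lower, with a median of 0.03. Unadjusted p under 0.05 was reached downward by 3 genes in each comparison, and DESeq2 and limma likewise called 0 lower. Over all genes 3.47% were called higher in the Nrf2 and 3.77% in the Keap1 comparison, and the genes below are described only as the ones called.

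The 2 genes called with D29H were Crebbp, which encodes the acetyltransferase CBP, a coactivator of NRF2, and Chd6, a chromatin remodeller that binds NRF2. Crebbp stood at 51.1, 54.1 and 47.7 CPM in the libraries labelled knockout and 57.6, 80.3 and 72.1 with D29H, a difference of 0.45 (edgeR adjusted p = 0.0215). Chd6 stood at 28.0, 26.1 and 27.4 CPM and at 29.6, 42.4 and 40.2, a difference of 0.46 (edgeR adjusted p = 0.0284). In both genes D29H replicate 1 lay close to the empty-virus libraries and the other two D29H libraries lay well above. Mafg also had its lowest D29H value in replicate 1. Crebbp was called in 13 of the 16 settings run and Chd6 in 12. Both calls were lost without D29H replicate 2 (Crebbp 0.35, adjusted p = 0.188; Chd6 0.37, adjusted p = 0.21) or replicate 3, and with GC and length offsets (0.27 and 0.29, adjusted p = 0.0772 and 0.0756), and that on Chd6 also without replicate 2 of the group labelled knockout (0.42, adjusted p = 0.105).

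The 2 genes called with R554Q were Sqstm1 and Rxra. Sqstm1, the autophagy receptor p62 that binds KEAP1 and is itself an NRF2 target, stood at 346, 336 and 370 CPM and at 509, 490 and 543, a difference of 0.56 (SE 0.08, edgeR adjusted p = 0.000426). Rxra, a retinoid receptor reported to bind NRF2, stood at 60.8, 61.9 and 63.8 CPM and at 83.3, 86.3 and 73.8, a difference of 0.39 (edgeR adjusted p = 0.00974). In both genes all R554Q libraries were above all wild-type libraries. Sqstm1 was called in all 16 settings run, and Rxra in 13, with GC and length offsets lowering it to 0.18 (adjusted p = 0.142). The difference between the alleles was called for none of the 29 by edgeR, DESeq2 or limma, and 4 had an unadjusted p under 0.05, so none is shown to respond to only one allele.

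**Figure D5:**
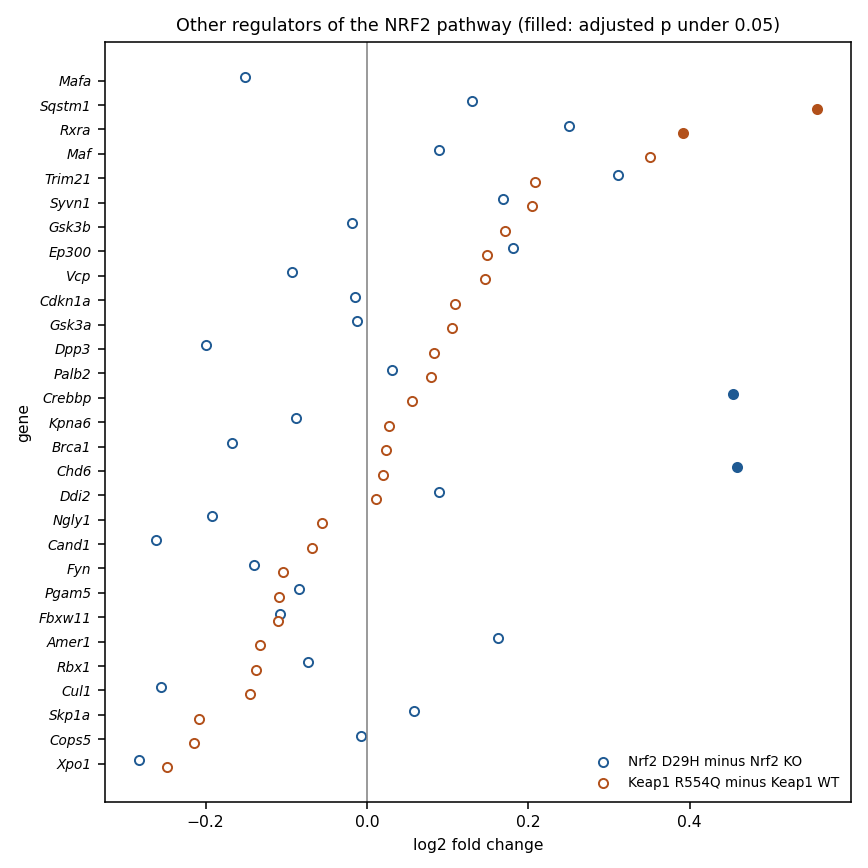
Log2 fold change of Cre virus against empty virus for other regulators of the pathway, 29 in the Nrf2-allele (blue) and 28 in the Keap1-allele cells (orange), ordered by the latter; filled points have an edgeR adjusted p under 0.05. Crebbp and Chd6 are filled for D29H at 0.45 and 0.46, and Sqstm1 and Rxra are filled for R554Q at 0.56 and 0.39.

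Between the cultures, 0 of these 29 regulators were called higher and 4 lower with the empty virus in the Nrf2-allele cells by edgeR (Fbxw11, Sqstm1, Rxra and Fyn), while 3 had an unadjusted p under 0.05 upward and DESeq2 called 1 higher. With the Cre virus 2 were called higher, Amer1 by 0.40 and Chd6 by 0.37. In that state 6 were called lower: Sqstm1 by -0.79, Vcp by -0.47, Fyn by -0.45, Rxra by -0.40, Dpp3 by -0.38 and Fbxw11 by -0.24. Over all genes 9.58% were called higher and 10.1% lower with the empty virus, and 13.1% higher and 13.4% lower with the Cre virus. Fbxw11, which encodes the other β-TrCP protein, was lower by -0.25 (edgeR adjusted p = 0.0394) with the empty virus and by -0.24 (adjusted p = 0.0402) with the Cre virus. The Fbxw11 calls were made in 13 and 10 of the 21 settings run, those on Rxra and Sqstm1 with the empty virus in 12 and 19, and those on Fyn in all 21. Fyn, a kinase tied to nuclear export of NRF2, was lower by -0.43 (edgeR adjusted p = 0.000386) and -0.45 (adjusted p = 0.000183).

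Genes of the proteasome, the textbook targets of NRF1, were read beside Nfe2l1, among them Pomp, which encodes an assembly factor and not a subunit. Of 32 genes edgeR called 0 in the Nrf2 comparison, where 1 was higher and 6 were lower at an unadjusted p under 0.05, DESeq2 and limma called 0 and 4.75% of all genes were called, with a median of -0.12. In the Keap1 comparison it called Psmd3 higher (0.28, edgeR adjusted p = 0.0494) and Psmd14 lower (-0.32, edgeR adjusted p = 0.04), with a median of -0.12, beside 3.77% of all genes called higher and 2.4% lower. At an unadjusted p under 0.05, 1 was higher and 8 were lower there, and DESeq2 called 1 higher and 3 lower and limma 1 of each. The calls on Psmd3 and Psmd14 were made in 7 and 8 of the 16 settings run, and GC and length offsets lowered them to 0.17 and -0.07. Between the cultures, where Nfe2l1 was lower in Nrf2-allele cells, 1 of 32 proteasome genes was called lower with the empty virus (Pomp, -0.28, edgeR adjusted p = 0.0202) and 3 with the Cre virus (Psmd2, Psmd3 and Psmd8, by -0.44, -0.32 and -0.34), while 0 were called higher by edgeR, DESeq2 or limma. DESeq2 called 2 lower with the empty virus and 4 with the Cre virus, and limma 1 and 4. Over all genes 10.1% were called lower with the empty virus and 13.4% with the Cre virus, so the edgeR counts of proteasome genes were not above that share. The Pomp call was made in 15 of the 21 settings run, with differences from -0.33 to -0.16 and an adjusted p of up to 0.11. Psmd2 was called in all 21, and Psmd3 and Psmd8 in 19 each.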

How the data were processed

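RNA was sequenced from mouse embryonic fibroblasts with a NEBNext Ultra library kit, per the labels' protocols, in 12 libraries, 3 in each of 4 groups taken from the sample titles and treatments. The submitters' processing notes name STAR, DESeq2 and mm10 without role or version; the counting tool, annotation and use of strand are not given in the sources used here. The authors deposited 2 tables, one per allele, with read counts per gene and FPKM, per the file headers. FPKM recomputed from count, listed gene length and column total matched to within 5e-10%. The tables also hold a mean signal per group made by the authors from scaled counts, the authors' log2 ratios with raw and adjusted p-values, and gene lengths, per the file headers; none of these entered a test.

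Counts were tested in R 4.3.3 with edgeR 4.0.16: filterByExpr, TMM factors, glmQLFit and glmQLFTest, on 6 libraries for each allele and on all 12 libraries over genes in both tables for the difference between alleles and for contrasts between cultures. The SE is the fold change over the square root of the test statistic. Genes were called at 0.05 after Benjamini-Hochberg adjustment over all genes tested. CPM were scaled over all 12 libraries. Positions are as the tables list them, and 7 of the 10 members had the same start and end in GENCODE M21, an annotation of GRCm38.

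Alternatives were RLE and upper-quartile factors, DESeq2 1.42.0, no filter on low counts or one at a mean of 50, GC and length offsets (lowess span 0.3), limma 3.58.1 with trend (prior count 2), a replicate block, a threshold of 0.01, all 12 libraries in one fit, and leaving out each library in turn. Pairs of replicates differed beyond sampling noise (chi-square per degree of freedom 4.95 to 25.1), so none was counted as a duplicate. Replicate numbers did not pair libraries: deviations of libraries with the same number correlated at -0.17 to 0.03. In simulated counts with planted changes the tests missed many of the smaller ones, most of all for the difference between alleles, and the Nrf2 and Keap1 comparisons made more false calls than the nominal rate. The members and gene lists were chosen with earlier results of these data known. The rule for named genes took all members, the other regulators called in either allele's comparison, the 3 genes nearest in pattern to a called member, and Nqo1. Sirt7, Fbxw11, Fyn, Vcp, Dpp3, Amer1 and the genes of the heme and proteasome lists were named after their values were seen. 1 gene of the list of other regulators is not reported here and was left out of its counts.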

Additional observations from a re-analysis of the deposited data

How the results depend on the processing

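Of the differences of single members under the alternatives, 825 kept their direction and side of the threshold, 65 turned direction, 5 came under the threshold and 5 went over it. The turned values are given below, the largest being -0.20 for Keap1, and the cause was not tested. The members called were 1 in every alternative of the Keap1 comparison. In the Nrf2 comparison they were 2 with GC and length offsets and 0 to 2 with a library left out. They were 0 in every alternative of the difference between alleles, and 2 to 4 between the Cre-virus states with a library left out.

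Counts over all genes moved more. The Nrf2 comparison gave 682 calls, 1195 with no filter, 138 at a threshold of 0.01 and 82 to 2192 with a library left out. The Keap1 comparison gave 872, then 1502 with no filter, 543 with the offsets, 242 at 0.01 and 238 to 2872 with a library left out. The difference between alleles gave 4, then 1 with upper-quartile factors, 32 with no filter, 1 at a mean count of at least 50, 53 with DESeq2, 1 with limma, 0 at 0.01 and 0 to 26 with a library left out. At 0.01 the empty-virus contrast between cultures fell from 2911 to 1690 calls and the Cre-virus contrast from 3927 to 2221. With a replicate block, which the data did not support as a pairing, calls were 484 in the Keap1 comparison and 0 for the difference between alleles and moved by less than 1.5 times elsewhere, and 1 of 12 libraries correlated best with its own number; no call on a member changed.

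Btrc in the Nrf2 comparison, at 0.00, became -0.0027 with RLE factors and with DESeq2, -0.011 with no filter, -0.0039 with limma, -0.0015 with the replicate block and -0.020 with the offsets. In the Keap1 comparison the offsets turned Nfe2l2 to 0.039, Keap1 to -0.20, Mafk to -0.10 and Cul3 to 0.031. In the difference between alleles Nfe2l1 turned to 0.010 with upper-quartile factors, 0.0029 at a mean count of at least 50 and 0.064 with the offsets, and Bach2 to -0.015 with the offsets. With the empty virus Nfe2l2 turned to 0.0055, 0.0070 and 0.011 under the same settings, and with the Cre virus Keap1 turned to 0.019 with the offsets. The offsets also brought Keap1 with the empty virus (-0.24, edgeR adjusted p = 0.0404) and Cul3 with the Cre virus (-0.30, edgeR adjusted p = 0.0202) under the threshold.

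Leaving out a library turned the following, given as lowest and highest values. In the Nrf2 comparison these were Btrc (-0.054 to 0.041), Cul3 (-0.30 to 0.041), Maff (-0.097 to 0.0030) and Mafk (-0.043 to 0.11). In the Keap1 comparison they were Bach2 (-0.0050 to 0.24), Keap1 (-0.035 to 0.096), Mafk (-0.083 to 0.15) and Nfe2l2 (-0.17 to 0.046). In the difference between alleles they were Bach1 (-0.070 to 0.0018), Bach2 (-0.073 to 0.18), Cul3 (-0.16 to 0.16), Maff (-0.014 to 0.15), Mafg (-0.039 to 0.16), Mafk (-0.10 to 0.14) and Nfe2l1 (-0.036 to 0.014). With the empty virus they were Bach2 (-0.071 to 0.19) and Nfe2l2 (-0.078 to 0.033), and with the Cre virus Btrc (-0.030 to 0.064), Keap1 (-0.14 to 0.042) and Mafg (-0.15 to 0.029). Bach2 had the fewest counts of the members, 70 to 137 a library.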

Other observations

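Within the Cre groups the library with the most Mafg RNA was not the one with the most Nqo1 RNA. D29H replicate 1 had the highest Nqo1 of its group (134 CPM against 108 and 116) and the lowest Mafg (117 CPM against 149 and 151). R554Q replicate 2 had the lowest Nqo1 (306 CPM against 369.8 and 378.1) and the highest Mafg (165 CPM against 145 and 128), and also the highest Mafk and Maff and the lowest Nfe2l2 of its group. With 3 libraries a group these are values without a test.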
